A study of Mus musculus with 5 samples.

Results

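The subject of this report is a set of 10 mature miRNAs that mark blood, liver and endothelium, measured in extracellular vesicles (EVs) of murine mesenchymal stem cells. They were chosen by name from the 1966 miRNAs of the count table, of which 517 had a count in any library. The set holds red cell miRNAs (mmu-miR-451a, mmu-miR-486a-5p and mmu-miR-486b-5p), leukocyte miRNAs (mmu-miR-142a-3p, mmu-miR-150-5p, mmu-miR-223-3p and mmu-miR-342-3p), liver miRNAs (mmu-miR-122-5p and mmu-miR-192-5p) and the endothelial mmu-miR-126a-3p. They are miRNAs that serum or other cells could bring into a vesicle preparation. Of the 10, 9 were detected and 6 had a count in all 5 libraries.

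The series set 3 libraries of freeze-dried EVs beside 2 of not freeze-dried EVs, which the labels call unmodified. All came from mesenchymal stem cells of C57BL/6-GFP transgenic mice. The cells of both groups grew with 10% fetal bovine serum and then spent 48 h in a medium with reduced serum, from which small EVs were pelleted at 100000 g and washed. The protocol shared by all 5 libraries resuspended the EVs in a freezing buffer, listed with and without 25 mM trehalose. Freeze-dried EVs were in trehalose buffer when frozen at -80 °C, dried overnight and rehydrated for 1 h. For the not freeze-dried EVs the labels list several buffers and storage temperatures and do not say which was used for sequencing. Total counts were 2914305, 2473178 and 192450 in freeze-dried replicates 1, 2 and 3, and 912080 and 131507 in not freeze-dried replicates 1 and 2. The name deep is used below for the 3 libraries above 500000 counts, and shallow for freeze-dried replicate 3 and not freeze-dried replicate 2. The labels do not tie replicates to separate cultures, and the spread behind each p-value may be technical.

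A miRNA is a short RNA that guides a silencing complex to messenger RNAs, mostly through its seed, bases 2 to 8 from the 5′ end. Most miRNAs of this set are known for their narrow range of cells. miR-451a and miR-486 accumulate in maturing red cells, miR-486 not in them alone. miR-142a accumulates in all blood lineages, miR-223 in myeloid cells, miR-150 in mature lymphocytes, miR-122 in hepatocytes and miR-126a in endothelial cells. miR-342 is strong in blood cells but less narrow, and miR-192 is shared by liver, kidney and gut. Because their sequences are nearly the same across mammals, a read from bovine serum could be counted as a mouse miRNA. No library of medium without cells was analysed here, so RNA of the stem cells, of serum and of other cells cannot be told apart in these counts.

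RefSeq (GRCm38.p6) gave a mature sequence that can be shown for 6 of the 10. They are shown because the seed sets which messenger RNAs a miRNA pairs with, and because the mature RNA is what was counted. Each is written 5′ to 3′ with the seed in capitals.

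mmu-miR-451a: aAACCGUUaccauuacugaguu

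mmu-miR-142a-3p: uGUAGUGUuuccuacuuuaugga

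mmu-miR-223-3p: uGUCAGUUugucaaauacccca

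mmu-miR-342-3p: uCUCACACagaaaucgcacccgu

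mmu-miR-192-5p: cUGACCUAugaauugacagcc

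mmu-miR-126a-3p: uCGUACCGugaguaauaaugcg

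The 6 sequences had 6 distinct seeds and were 21 to 23 bases long. Their GC content ran from 34.8% in miR-142a-3p to 52.2% in miR-342-3p. For 5 of them no other mature miRNA of the RefSeq table had the same seed. miR-192-5p shares its seed with mmu-miR-215-5p, which had 0 counts over all 5 libraries.  For miR-486a-5p and miR-486b-5p the hairpin genes overlap on opposite strands of chromosome 8 in GENCODE M21 (GRCm38), Mir486 at chr8:23142555-23142682 on the plus strand and Mir3107 at chr8:23142573-23142662 on the minus strand. The authors' treatment of strand and of multiple matches is not given in the sources used here. The split of reads between miR-486a-5p and miR-486b-5p is therefore uncertain. Whether they count separate RNAs cannot be told from these counts.

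**Figure D1:**
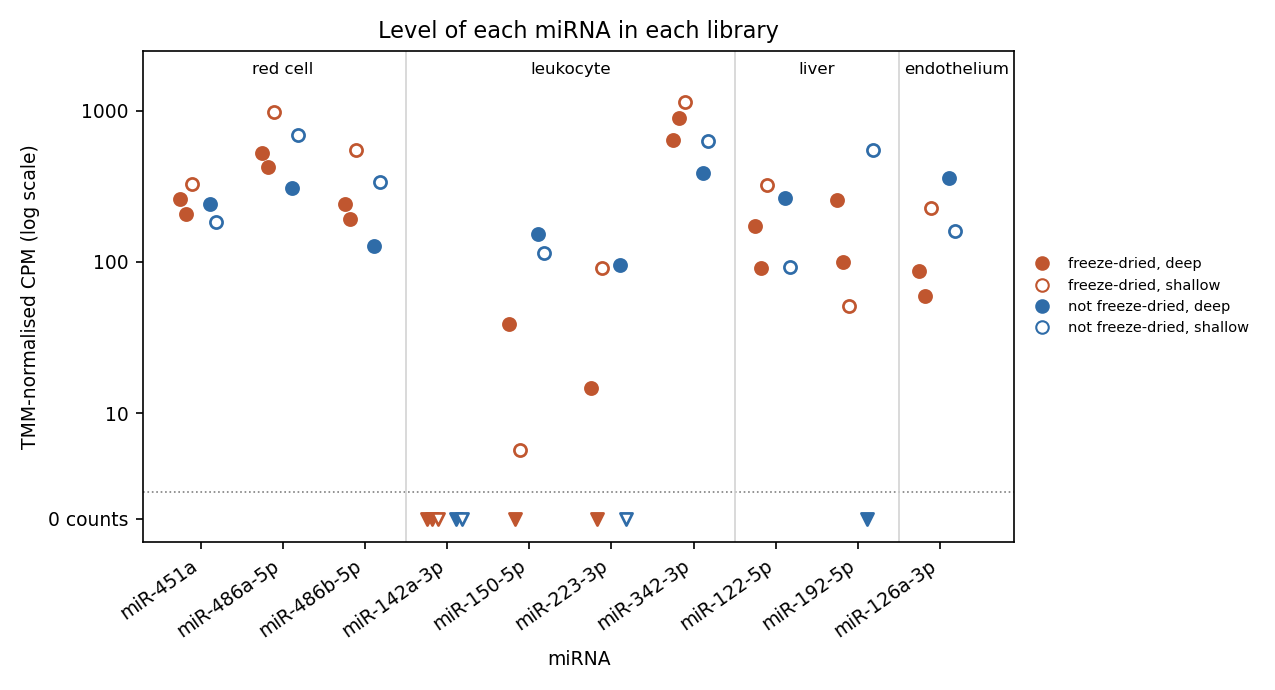
TMM-normalised CPM (read counts scaled to library size, log scale) of each of the 10 miRNAs in each library, with freeze-dried EVs left of not freeze-dried EVs, deep libraries as filled and shallow ones as open symbols, and values of 0 as triangles under the dotted line. miR-342-3p lay between 641.6 and 1144 CPM in freeze-dried EVs and at 388.6 and 628.6 CPM in not freeze-dried EVs, and miR-142a-3p was at 0 in all 5.

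The red cell miRNAs had counts in all 5 libraries. miR-451a, which is matured by Ago2 without Dicer, had 715, 534 and 58 counts in freeze-dried replicates 1 to 3, and 246 and 24 counts in not freeze-dried replicates 1 and 2. That came to 260.2, 207.4 and 330.2 TMM-normalised CPM in freeze-dried EVs, and 241.4 and 184.0 CPM in not freeze-dried EVs. The groups overlapped, and the highest library was only 1.80 times the lowest. Of the 209 miRNAs with a count in all 5 libraries, 18.7% had a narrower range, and their median range was 3.38-fold. The miR-451a hairpin lies on chromosome 11 at chr11:78073170-78073241, outside other genes on its strand. Its opposite-strand partner miR-451b had 0 counts.

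miR-486a-5p stood at 528.7, 422.3 and 979.4 CPM in freeze-dried EVs, from 1453, 1087 and 172 counts. In not freeze-dried EVs it stood at 309.1 and 689.9 CPM, from 315 and 90 counts. The groups overlapped, and both shallow libraries lay above all deep ones; the part of depth in this was not tested. miR-486b-5p stood at 243.5, 192.7 and 552.3 CPM in freeze-dried EVs, from 669, 496 and 97 counts, and at 127.6 and 337.3 CPM in not freeze-dried EVs, from 130 and 44 counts. It took the same order across libraries as miR-486a-5p, which is no separate observation while the split of reads between them is uncertain. Within each library miR-486b-5p had 0.460, 0.456 and 0.564 times the counts of miR-486a-5p in freeze-dried replicates 1 to 3, and 0.413 and 0.489 times in not freeze-dried replicates 1 and 2. The exact 95% binomial intervals of these 5 ratios overlapped one another, the widest being 0.333 to 0.709. The Mir486 hairpin lies in an intron of Ank1, the gene of the red cell membrane protein ankyrin.

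Of the leukocyte miRNAs, miR-142a-3p, which marks all blood lineages, had 0 counts in all 5 libraries. At 3 counts, the limit a count of 0 allows, its level was at most an unnormalised CPM of 1.03, 1.21 and 15.6 in freeze-dried replicates 1 to 3, and of 3.29 and 22.8 in not freeze-dried replicates 1 and 2. These limits, and all binomial intervals, cover counting error alone. Its other strand, miR-142a-5p, and the opposite-strand miR-142b also had 0 counts. The treatment of strand is not given in the sources used here. The limits above therefore do not cover any reads lost to the overlap of miR-142a with miR-142b. The hairpin lies on chromosome 11 at chr11:87756864-87756927, in an intron of Mir142hg.

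miR-342-3p had the highest mean level of the set, although miR-486a-5p lay above it in not freeze-dried replicate 2. It had 1763, 2302 and 201 counts in freeze-dried EVs, or 641.6, 894.3 and 1144 CPM, and 396 and 82 counts in not freeze-dried EVs, or 388.6 and 628.6 CPM. Every freeze-dried library lay above both not freeze-dried ones, by a margin of 641.6 against 628.6 CPM at the closest. Scaled to library totals without TMM, the groups overlapped, at an unnormalised CPM of 604.9 in freeze-dried replicate 1 and 623.5 in not freeze-dried replicate 2. Among deep libraries the mean in freeze-dried EVs was 1.98 times the not freeze-dried value, and among shallow ones 1.82 times. Its hairpin lies in an intron of Evl, an actin regulator, at chr12:108658620-108658718.

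miR-150-5p had 106, 0 and 1 counts in freeze-dried EVs, or 38.6, 0 and 5.69 CPM, and 157 and 15 counts in not freeze-dried EVs, or 154.1 and 115.0 CPM. Both not freeze-dried libraries lay above all 3 freeze-dried ones. miR-223-3p had 40, 0 and 16 counts in freeze-dried EVs, or 14.6, 0 and 91.1 CPM, and 97 and 0 counts in not freeze-dried EVs, or 95.2 and 0 CPM. One library of each group was at 0 for miR-223-3p, and the groups overlapped. The miR-150 hairpin lies at chr7:45121757-45121821 outside other genes on its strand, and the miR-223 hairpin, at chrX:96242817-96242926, overlaps an exon of F630028O10Rik.

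Of the liver miRNAs, miR-122-5p, the dominant miRNA of hepatocytes, had a count in every library. It stood at 173.9, 90.9 and 324.6 CPM in freeze-dried EVs, from 478, 234 and 57 counts, and at 265.0 and 92.0 CPM in not freeze-dried EVs, from 270 and 12 counts. The groups covered nearly the same range. Among deep libraries the freeze-dried mean of miR-122-5p was 0.5 times the not freeze-dried value, and among shallow ones it was 3.53 times. miR-192-5p stood at 255.5, 100.2 and 51.2 CPM in freeze-dried EVs, from 702, 258 and 9 counts. In not freeze-dried EVs it had 0 counts in replicate 1, where a count of 0 allows an unnormalised CPM of at most 3.29, and 72 counts or 551.9 CPM in replicate 2. The not freeze-dried group thus held both the lowest and the highest library. The ratio of miR-122-5p to miR-192-5p counts was 0.681, 0.907 and 6.33 in freeze-dried replicates 1 to 3 and 0.167 in not freeze-dried replicate 2, so these liver miRNAs did not keep 1 proportion across libraries. The miR-192 hairpin lies at chr19:6264844-6264932, outside other genes on its strand.

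The endothelial miR-126a-3p, a regulator of vessel growth, had 241, 154 and 40 counts in freeze-dried EVs, or 87.7, 59.8 and 227.8 CPM. In not freeze-dried EVs it had 368 and 21 counts, or 361.2 and 161.0 CPM. The groups overlapped, and the highest library was 6.04 times the lowest, a wider range than that of 66.5% of the miRNAs found in all 5 libraries. Among deep libraries the freeze-dried mean was 0.204 times the not freeze-dried value, and among shallow ones it was 1.41 times. In GENCODE M21 (GRCm38) the hairpin lies at chr2:26591357-26591429. There it overlaps an annotated exon of Egfl7, the gene of a factor that endothelial cells secrete, and an intron of Gm20532 on the same strand. The opposite-strand miR-126b strands had 0 counts.

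By mean CPM over the 5 libraries the order was miR-342-3p (739.5), miR-486a-5p (585.9), miR-486b-5p (290.7), miR-451a (244.7), miR-192-5p (191.8), miR-122-5p (189.3), miR-126a-3p (179.5), miR-150-5p (62.7) and miR-223-3p (40.2). Their places among the 517 miRNAs with a count ran from 100 for miR-342-3p to 257 for miR-223-3p. All 9 lay above the median level of 39.3 CPM. The ranges of neighbours in this order overlapped at every step. Within libraries, the counts assigned to miR-486a-5p exceeded those of miR-486b-5p in all 5, with every interval of their ratio below 1. Those intervals cover counting error alone. They cannot measure how reads were split between miR-486a-5p and miR-486b-5p, so the order of these miRNAs stays uncertain. For scale, let-7c-5p, the most abundant miRNA, averaged 144400 CPM in freeze-dried EVs and 90538 CPM in not freeze-dried EVs.

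**Figure D2:**
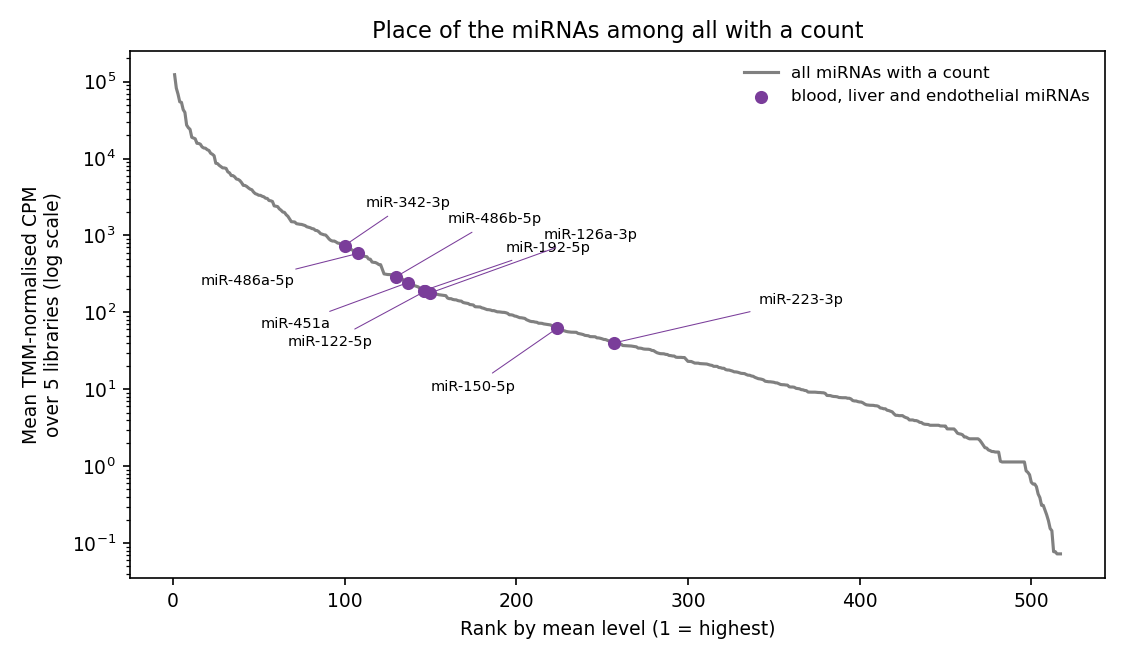
Mean TMM-normalised CPM over the 5 libraries (log scale) against the rank of each of the 517 miRNAs with a count (line), with the 9 detected blood, liver and endothelial miRNAs as points. They lie between rank 100 and rank 257, far below let-7c-5p at a mean of 122855 CPM.

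Together the 10 miRNAs took 0.212%, 0.205% and 0.338% of all counts in freeze-dried replicates 1 to 3, and 0.217% and 0.274% in not freeze-dried replicates 1 and 2. The means were 0.252% ± 0.075 in freeze-dried EVs (SD, n = 3) and 0.245% ± 0.040 in not freeze-dried EVs (SD, n = 2). These means differed by less than 1 SD of either group. Without freeze-dried replicate 3 the difference of 0.0062 percentage points became -0.0372, and both remaining freeze-dried libraries lay below both not freeze-dried ones. Both shallow libraries lay above the 3 deep ones, and the part of depth in this was not tested. By group means the red cell members made up the most, at 0.118% ± 0.046 in freeze-dried EVs (SD, n = 3) and 0.0980% ± 0.0314 in not freeze-dried EVs (SD, n = 2). In freeze-dried replicate 2 the leukocyte members took more, 0.0931% against 0.0856%. The order also depended on which strands were counted. In the wider lists given below, the leukocyte list took more than the red cell list in not freeze-dried EVs, at means of 0.107% against 0.0980%. It took less in freeze-dried EVs, at 0.0988% against 0.121%. A list of 17 mesenchymal miRNAs, all of which had counts, took 23.2% ± 2.7 in freeze-dried EVs (SD, n = 3) and 29.4% ± 2.1 in not freeze-dried EVs (SD, n = 2). It was led by miR-21a-5p and miR-143-3p, at means of 68537 and 53692 CPM over the 5 libraries. The summed share of this list was far above that of the blood, liver and endothelial miRNAs in every library. Its members were chosen with earlier results of these data known, and miR-21a-5p and miR-143-3p ranked 3 and 5 among all miRNAs with a count. The gap was therefore no test of the cell type.

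**Figure D3:**
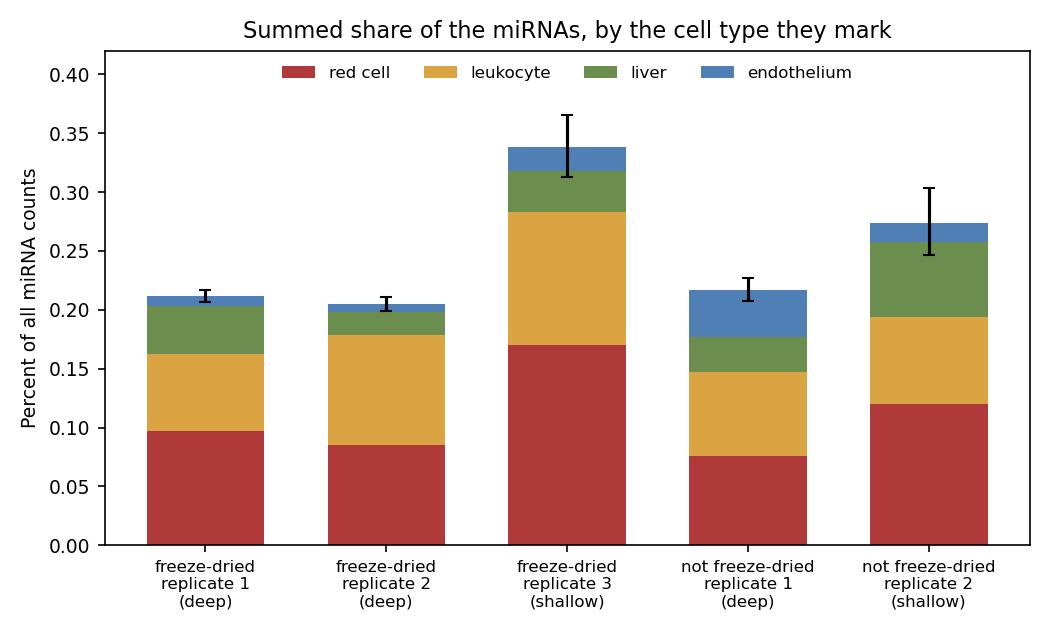
Percent of all miRNA counts taken by the red cell, leukocyte, liver and endothelial miRNAs of the set in each library, with exact 95% binomial intervals of the sum (counting error only). The sum was 0.212%, 0.205% and 0.338% in freeze-dried EVs and 0.217% and 0.274% in not freeze-dried EVs.

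Most hairpins here give a guide strand, which is kept, and a partner strand, which is mostly lost. Of the 9 partner strands of the set (miR-451a has none), 3 had a count in any library. miR-342-5p had 0, 391 and 17 counts in freeze-dried EVs and 92 and 78 counts in not freeze-dried EVs, which came to 10.9% of the counts from both of its strands. In not freeze-dried replicate 2 it nearly equalled miR-342-3p, with 78 against 82 counts. In freeze-dried replicate 1 it was at 0 beside 1763 counts of miR-342-3p. miR-126a-5p had 265, 0 and 2 counts in freeze-dried EVs and 0 in both not freeze-dried libraries. miR-486a-3p had 107 counts, all in freeze-dried replicate 2.

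Wider lists of the same cell types gave few further members with counts. In the red cell list 5 of 7 had a count, among them miR-144-3p, which is made from the same primary transcript as miR-451a and had 163 counts in freeze-dried replicate 2 and 0 in the other 4 libraries. In the leukocyte list 4 of 8 had a count, in the liver list 4 of 9 and in the endothelial list 2 of 4. Of these, 3, 4, 3 and 1 could be tested in the order given, and edgeR called 0 in each list and 0% of all 327 tested miRNAs. Only miR-342-5p and miR-194-5p were tested beyond the set, so the red cell and endothelial results are those of the members. Median log2 fold changes were 0.37, -1.28, -0.10 and -1.08 against 0.02 over all tested miRNAs. The last of the 4 is the value of miR-126a-3p alone. miR-194-5p, one of whose hairpin copies neighbours that of miR-192, had 0, 322 and 19 counts in freeze-dried EVs and 0 and 22 in not freeze-dried EVs. miR-194-2-3p had 51 counts in freeze-dried replicate 1 and 0 elsewhere. A list of 5 miRNAs that are abundant in blood but expressed in most cells was led by miR-92a-3p and miR-25-3p. Their means were 54599 and 13018 CPM. The list took 6.85% ± 2.81 in freeze-dried EVs (SD, n = 3) and 8.28% ± 4.91 in not freeze-dried EVs (SD, n = 2). By library its share was 4.67%, 5.85% and 10.0% in freeze-dried replicates 1 to 3, and 4.81% and 11.75% in not freeze-dried replicates 1 and 2. Both shallow libraries lay above all deep ones, and the part of depth in this was not tested.

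The 4 zeros among the 9 detected miRNAs were not those of the shallowest libraries alone. Freeze-dried replicate 2, with 2473178 counts, had 0 for miR-150-5p and miR-223-3p, while freeze-dried replicate 3, with 192450 counts, had 1 and 16. Not freeze-dried replicate 1, with 912080 counts, had 0 for miR-192-5p, while replicate 2, with 131507, had 72. The remaining zero was that of miR-223-3p in not freeze-dried replicate 2. Among the 9 miRNAs with a count, the 3 deep libraries gave 27 values, of which 3 were 0 and none lay between 1 and 9. The lowest count above 0 in them was 40. Over all miRNAs, those with 1 to 9 counts made up 4.16% and 4.69% of the detected ones in freeze-dried replicates 1 and 2 and 10.2% in not freeze-dried replicate 1. In the shallow libraries they made up 34.2% in freeze-dried and 30.5% in not freeze-dried EVs. In each library 23 to 61 miRNAs were at 0 that had 100 or more counts in another.

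**Figure D4:**
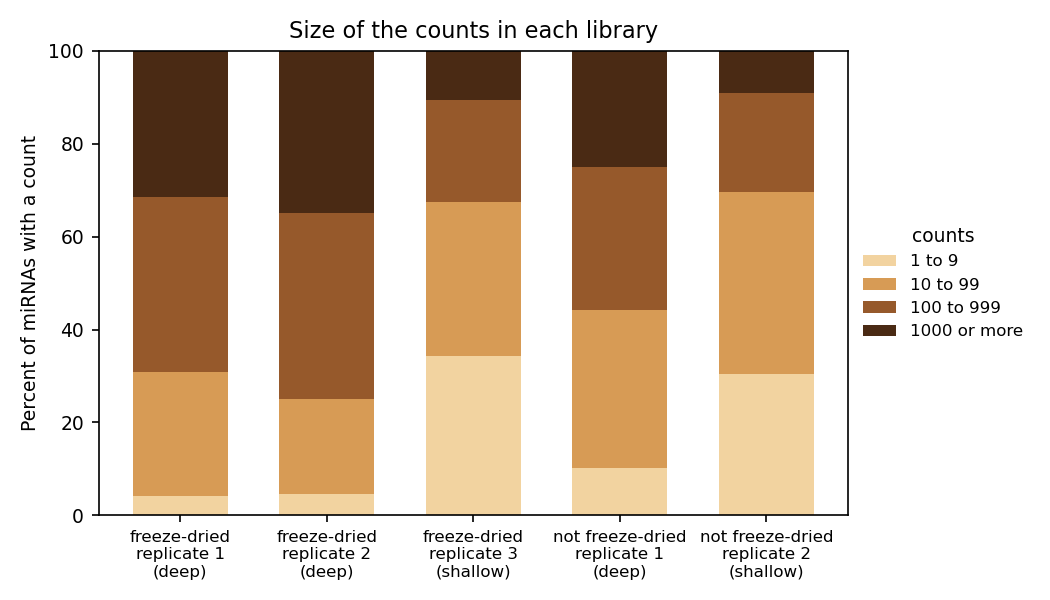
Percent of the miRNAs with a count that fell into each of 4 classes of count size, from 1 to 9 counts (lightest) to the highest counts (darkest), in each library. Counts of 1 to 9 made up 4.16%, 4.69% and 34.2% in freeze-dried replicates 1 to 3, and 10.2% and 30.5% in not freeze-dried replicates 1 and 2.

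When each library was thinned once at random to 131507 counts, 7, 7 and 7 of the 10 miRNAs kept at least 10 counts in freeze-dried replicates 1 to 3, and 8 and 8 in not freeze-dried replicates 1 and 2. The numbers expected over all draws were 6.67, 5.99 and 6.78 in freeze-dried EVs and 7.90 and 8 in not freeze-dried EVs. At 1 or more counts the numbers were 9, 7 and 8 in freeze-dried EVs and 8 and 8 in not freeze-dried EVs. Over all miRNAs in the same draw, 191, 202 and 207 kept at least 10 counts in freeze-dried EVs, against 209 and 219 in not freeze-dried EVs. The higher number in both not freeze-dried libraries was thus not particular to the set. miR-150-5p had 5, 0 and 0 counts in freeze-dried EVs at this depth, against 25 and 15 in not freeze-dried EVs. In that draw miR-126a-3p stood at exactly 10 counts in freeze-dried replicates 1 and 2, so its place at the minimum rests on the draw.

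Across libraries, the miRNAs with the most similar profile were taken from the tested ones outside the set by the mean absolute difference of log2 CPM over the 5 libraries, each centred on its own mean. miR-451a lay nearest to miR-206-3p (0.133) and miR-191-5p (0.137), against a median distance of 1.06 to the tested miRNAs outside the set. miR-342-3p lay nearest to let-7d-3p (0.121) and miR-423-5p (0.183), with a median of 1.08. miR-486a-5p lay nearest to miR-149-5p (0.206) and let-7d-5p (0.247). miR-486b-5p lay nearest to let-7b-3p (0.280) and miR-467c-5p (0.297). miR-122-5p lay nearest to miR-185-5p (0.209) and miR-3060-3p (0.255). miR-126a-3p lay nearest to miR-1247-5p (0.472) and miR-378a-3p (0.476). The tested members with a count of 0 in some library had their nearest neighbours farther off, at 0.783 for miR-150-5p, 0.839 for miR-192-5p and 0.958 for miR-223-3p. Their median distances were larger as well, at 2.39, 2.44 and 2.55 in the same order. With 5 libraries of unequal depth these are descriptions, and depth is shared by all of them.

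In the test of freeze-drying, 0 of the 9 tested miRNAs of the set were called higher or lower by edgeR's quasi-likelihood test with Benjamini-Hochberg adjustment, and over all 327 tested miRNAs 0% were called. Each of the 9 had an adjusted p of 0.976 in edgeR. At an unadjusted p under 0.05 edgeR had 0 of the 9, DESeq2 had 0 and limma-voom had 2, which were miR-150-5p and miR-126a-3p. The adjusted p of both in limma-voom was 0.867, and neither DESeq2 nor limma-voom called any member at an adjusted threshold of 0.05. Over all tested miRNAs an unadjusted p under 0.05 was found for 9 by edgeR, 16 by DESeq2 and 15 by limma-voom. The fitted change was above 1-fold for 5 and below it for 4, with a median log2 fold change of 0.12 against 0.02 over all tested miRNAs. With miR-486a-5p and miR-486b-5p summed, 4 lay above and 4 below, at a median of -0.19. The members' median was -0.12 with upper-quartile normalization and 0.07 with DESeq2, so its sign was not stable. The normalised levels of the groups did not overlap for 1 member on the higher side, miR-342-3p, and 1 on the lower side, miR-150-5p. Without TMM miR-342-3p overlapped, as given above, and miR-150-5p did not. Over all tested miRNAs the shares were 8.87% higher and 8.56% lower, so 1 of 9 on each side is near the background.

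The intervals show what these libraries can and cannot resolve. miR-342-3p averaged 893 ± 252 CPM in freeze-dried EVs (SD, n = 3) and 509 ± 170 CPM without freeze-drying (SD, n = 2), a fitted fold change of 1.76 (log2 0.81, SE 0.56) with a 95% interval of 0.740 to 4.18. miR-486a-5p averaged 644 ± 296 CPM in freeze-dried EVs (SD, n = 3) and 500 ± 269 CPM without it (SD, n = 2), with an interval of 0.450 to 3.69 around a fold change of 1.29. When the counts of miR-486a-5p and miR-486b-5p were summed, the log2 fold change was 0.42 (SE 0.60). Without not freeze-dried replicate 1 the direction of miR-486a-5p turned, to a log2 fold change of -0.036. miR-451a averaged 266 ± 62 CPM in freeze-dried EVs (SD, n = 3) and 213 ± 41 CPM without it (SD, n = 2), with an interval of 0.298 to 5.21 around 1.25. In the deep libraries alone its log2 fold change was -0.068.

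miR-150-5p, on the lower side, averaged 14.8 ± 20.8 CPM in freeze-dried EVs (SD, n = 3) and 134.5 ± 27.6 CPM in those not dried (SD, n = 2). Its fitted log2 fold change was -3.14 (SE 2.3), and its interval in fold ran from 0.00319 to 4.02. miR-126a-3p averaged 125 ± 90 CPM in freeze-dried EVs (SD, n = 3) and 261 ± 142 CPM in those not dried (SD, n = 2). Its log2 fold change was -1.08 (SE 1.17), with an interval in fold of 0.0768 to 2.92. For miR-122-5p it was 0.12 (SE 1.16), whose direction turned to -1.03 in the deep libraries and to -0.12 with upper-quartile normalization. For miR-192-5p the log2 fold change was -1.003 (SE 1.99), and without not freeze-dried replicate 2, which holds all its counts in that group, the fit gave 10.8, a value that depends on how the count of 0 is treated. miR-223-3p had -0.51 (SE 2.81), and its direction turned to 8.62 without not freeze-dried replicate 1, which holds all its counts in that group. Every interval but that of miR-342-3p, whose lower bound was 0.740, spanned both 0.5-fold and 2-fold.

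**Figure D5:**
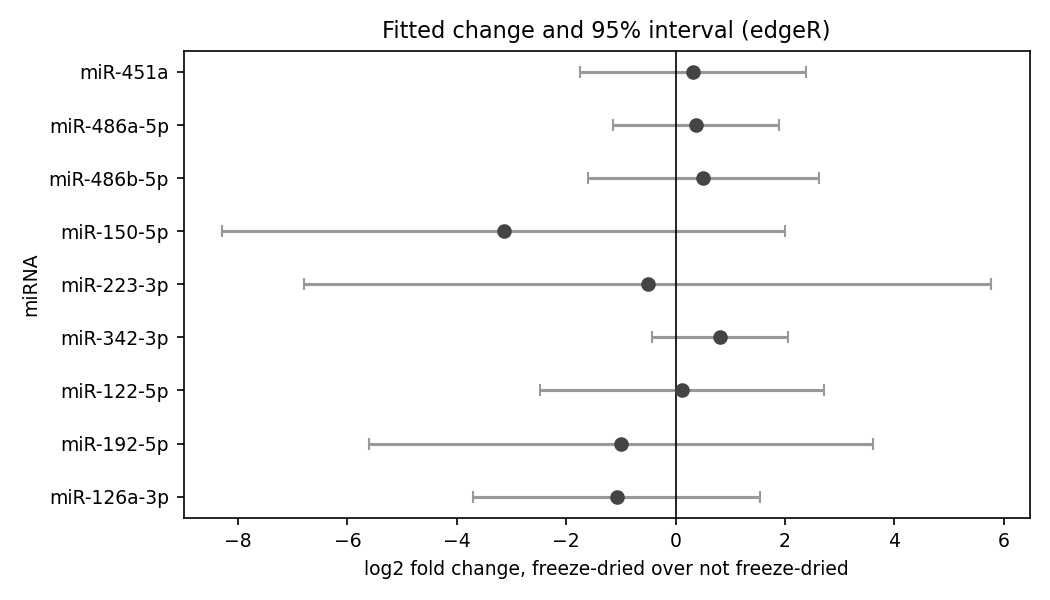
Fitted log2 fold change of freeze-dried over not freeze-dried EVs for the 9 tested miRNAs (points) with 95% intervals from edgeR (bars), from 3 and 2 libraries. All intervals include 0, the narrowest being that of miR-342-3p at a log2 fold change of 0.81 and the widest that of miR-223-3p at -0.51.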

How the data were processed

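The authors deposited raw read counts per mature miRNA, with no normalization, in 1 table of 1966 miRNAs and 5 libraries. Tools in the submitters' processing notes were Bowtie 1.1.2, featureCounts 1.5.0-p1, cutadapt 2.3, bcl2fastq 2.20 and FastQC, on GRCm38. How strand, multiple matches and duplicates were handled, and the miRNA annotation, is not given in the sources used here. All rows named a miRNA.

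Libraries were grouped by title. The test was edgeR 4.0.16 in R 4.3.3 (quasi-likelihood, robust, TMM, filterByExpr, Benjamini-Hochberg over 327 miRNAs, threshold 0.05). The SE was the log2 fold change over the root of F, and intervals are at 95%. CPM values are TMM-normalised and shares are of raw totals. DESeq2 1.42.0 and limma-voom (limma 3.58.1), other normalizations and filters, the depth term, deep libraries alone, left-out libraries and a replicate block were alternatives. Profiles used a prior count of 2. The fit was tested on simulated counts. Hairpins were placed in GENCODE M21 (GRCm38). All 10 members were named by rule, with the 2 most abundant others of each list and the 2 nearest profiles. Members and lists were chosen with earlier results of these data known.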

Additional observations from a re-analysis of the deposited data

How the results depend on the processing

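The count of 0 called members held under all 16 alternatives. The count over all miRNAs, 0, became 1 in the deep libraries, where the lone not freeze-dried library is assumed to vary like the freeze-dried ones, and 4 with the replicate block. The 2 pairs of same-numbered libraries had deviations correlated at 0.17 and -0.12, which, from 2 pairs, do not establish a pairing; the labels give none. miR-486b-5p, miR-342-3p, miR-150-5p and miR-126a-3p kept their direction throughout, with log2 fold changes of 0.00258 to 1.3, 0.57 to 1.15, -6.19 to -2.52 and -2.31 to -0.30. The direction of miR-451a turned to -0.068 in the deep libraries, and that of miR-486a-5p ranged from -0.036 to 0.996 without 1 library. miR-223-3p ranged from -2.75 to 8.62 without 1 library. miR-122-5p became -0.12 with upper-quartile normalization, -0.082 without normalization, -0.75 with limma-voom, -1.03 in the deep libraries, -0.32 with the replicate block and -0.50 to 1.16 without 1 library. miR-192-5p became 5.41 with limma-voom, 11.5 in the deep libraries, 2.33 with the depth term, 2.82 with the replicate block and -1.96 to 10.8 without 1 library. The cause was not tested; where a group was left at 0 counts, in the deep libraries or without 1 library, the value is no bound. The difference in members with 10 counts after thinning, -1, was 0 with a minimum of 1 or of 3 counts (0 in both) and -0.333 in unthinned libraries. The difference of the summed shares, 0.0062 percentage points, moved by less than the SD of the 3 freeze-dried libraries, 0.075, but turned to -0.0372 without freeze-dried replicate 3, -0.00877 in the deep libraries, -0.0222 without not freeze-dried replicate 1 and -0.00109 without miR-486b-5p.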
